A study of Mus musculus with 24 samples.

Results

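The 66 genes described here make splicing and mRNA processing factors. They were taken from the 12393 genes that the array names by a single symbol. Of these, 64 had a symbol starting with Srsf, Hnrnp, Sf3a, Sf3b, Snrp, Prpf, Cpsf or Cstf, and Pabpn1 and Pan2 were added by name. One probe set stood for each gene, the one with the highest mean log2(signal + 16) over all 24 arrays, so mean signals are a description and not a finding. A probe set is a group of short probes read together as 1 value, and some can match several transcripts. Of the 64 genes chosen by the start of their symbol, 62 were called Present on at least 6 of the 24 arrays and entered the tests. Cpsf4l was Present on 0 arrays and Snrpn on 1, and neither was tested. Pabpn1 and Pan2 were picked with their values in these arrays known, and they are described below without a test.

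The samples were choroid plexus, a secretory epithelium with its stroma that lies in the ventricles and makes cerebrospinal fluid, from C57BL knock-in mice aged 78 weeks. A humanized ApoE4 or ApoE3 gene was combined with a high-fat diet (HFD) or normal chow (ND). Human apolipoprotein E carries lipids in brain and blood, and ApoE4 is the common form linked to a higher risk of Alzheimer's disease. The groups were ApoE4 on HFD, ApoE3 on HFD, ApoE4 on ND and ApoE3 on ND, with 6 arrays each, 3 from males and 3 from females. No group carried the unmodified mouse gene, so the 2 humanized forms are compared only with each other. The tissue was collected by laser capture microdissection, in which a region of a frozen section is cut out under a microscope. The labels do not tell how regions were picked or whether 2 arrays could come from 1 animal. All p-values thus rest on the scatter among these arrays, which may be technical. The genotype labels were not checked from the arrays here.

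Before a transcript leaves the nucleus its introns are removed by the spliceosome and its 3' end is cut and given a poly(A) tail. The spliceosome is built from small nuclear ribonucleoproteins, rings of Sm proteins around a short RNA with further proteins attached. The U2 particle uses the SF3a and SF3b complexes to hold the branch site, and the Prpf factors join as the catalytic core is assembled and activated. SR proteins mostly favour the use of an exon and hnRNPs often oppose it. The cleavage and polyadenylation complexes CPSF and CstF read the signals on either side of the cleavage site.

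The tissue label was borne out by Ttr, the transthyretin gene of the choroid plexus epithelium, which read between 13080 and 25450 on every array. The arrays were scaled to nearly the same trimmed mean, 500.17 to 500.19, and replicates of a group correlated at 0.975 to 0.989 over all genes. Several array measures differed with genotype. The mean log2(signal + 16) of 21 tested neuron, oligodendrocyte and astrocyte markers was 7.79 to 8.20 in ApoE4 HFD and 8.22 to 8.47 in ApoE3 HFD, with no overlap. On ND it was 7.70 to 8.21 in ApoE4 and 8.04 to 8.32 in ApoE3, with overlap. Summed linear signal of these markers was 7740.3 to 9874.3 in ApoE4 HFD and 10601.1 to 12545.4 in ApoE3 HFD, and 6846.7 to 9487.7 in ApoE4 ND and 8894.5 to 10006.4 in ApoE3 ND. Of the 36 listed markers, 30 were on the array and 9 of those, among them Gfap, Mog and Rbfox3, were not Present on enough arrays. The macrophage and microglia markers (14 tested of 18) also lay apart on HFD, with a mean log2 level of 7.64 to 7.93 in ApoE4 and 7.95 to 8.37 in ApoE3. The spike-in hybridization controls had a median log2 level of 11.29 in ApoE4 HFD and 11.64 in ApoE3 HFD, and of 11.34 in ApoE4 ND and 11.61 in ApoE3 ND. The share of probe sets called Present had a median of 58.9% in ApoE4 HFD and 55.3% in ApoE3 HFD, and of 58.0% in ApoE4 ND and 54.6% in ApoE3 ND. The array median signal was 141.45 to 159.7 in ApoE4 HFD and 167.6 to 179.2 in ApoE3 HFD, with no overlap, and 145.35 to 164.55 in ApoE4 ND and 153.1 to 181.55 in ApoE3 ND, with overlap. Of 11 tested smooth muscle and pericyte markers 5 fell in ApoE4 on each diet, with a median log2 fold change of -0.29 on HFD and -0.32 on ND. Log2 ratios of 3' to 5' control probe sets of Actb had medians of 1.71 in ApoE4 HFD and 1.85 in ApoE3 HFD. On ND these medians were 1.66 in ApoE4 and 1.92 in ApoE3. For Gapdh they were -0.29 and -0.14 on HFD and -0.25 and -0.10 on ND, in the same order. The ranges of both ratios overlapped between genotypes on each diet. The part of all these measures in the differences below was not tested. In whole tissue, fewer cells of a type and less RNA per cell cannot be told apart.

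**Figure D1:**
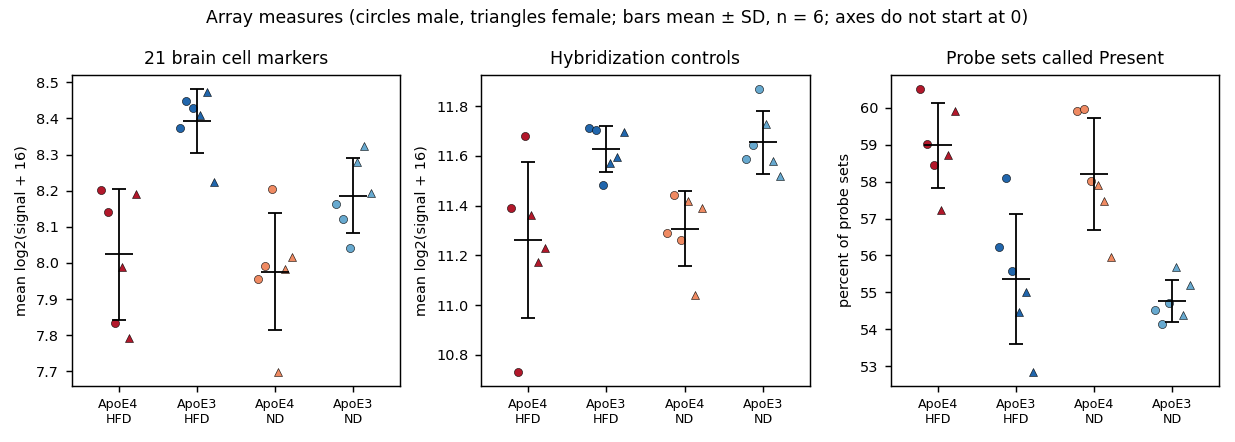
Mean log2(signal + 16) of 21 brain cell markers, mean log2(signal + 16) of the hybridization controls and the percent of probe sets called Present, 1 point per array in each of the 4 groups (circles male, triangles female), with bars for the mean ± SD (n = 6). The brain marker means of ApoE4 HFD (7.79 to 8.20) lie below all those of ApoE3 HFD (8.22 to 8.47).

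Genotype on the high-fat diet gave most of the differences. In ApoE4 against ApoE3 on HFD, 18 of the 62 tested factors passed (29%), 6 higher and 12 lower. That share is near the background, since 27.9% of all 8261 genes tested passed, 10.8% higher and 17.1% lower. The median log2 fold change was -0.01 over the factors and -0.05 over all genes. The fall was largest for Hnrnph3 (log2 fold change -0.61) and Sf3b4 (-0.54), and the rise was largest for Prpf38a (0.51). The counts by role given below rest on 1 probe set per gene. Fold changes are ApoE4 over ApoE3 on the log2(signal + 16) scale, ± SE from limma with a term for sex, and p-values are Benjamini-Hochberg adjusted over all genes tested, with 0.05 as the threshold. The brain marker means also lay apart on HFD. With that mean as a covariate, 3 of the 62 factors passed, 1 higher and 2 lower, as did 388 of all genes. Since the mean lay apart between the genotypes, this fit cannot tell its part from that of genotype.

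**Figure D2:**
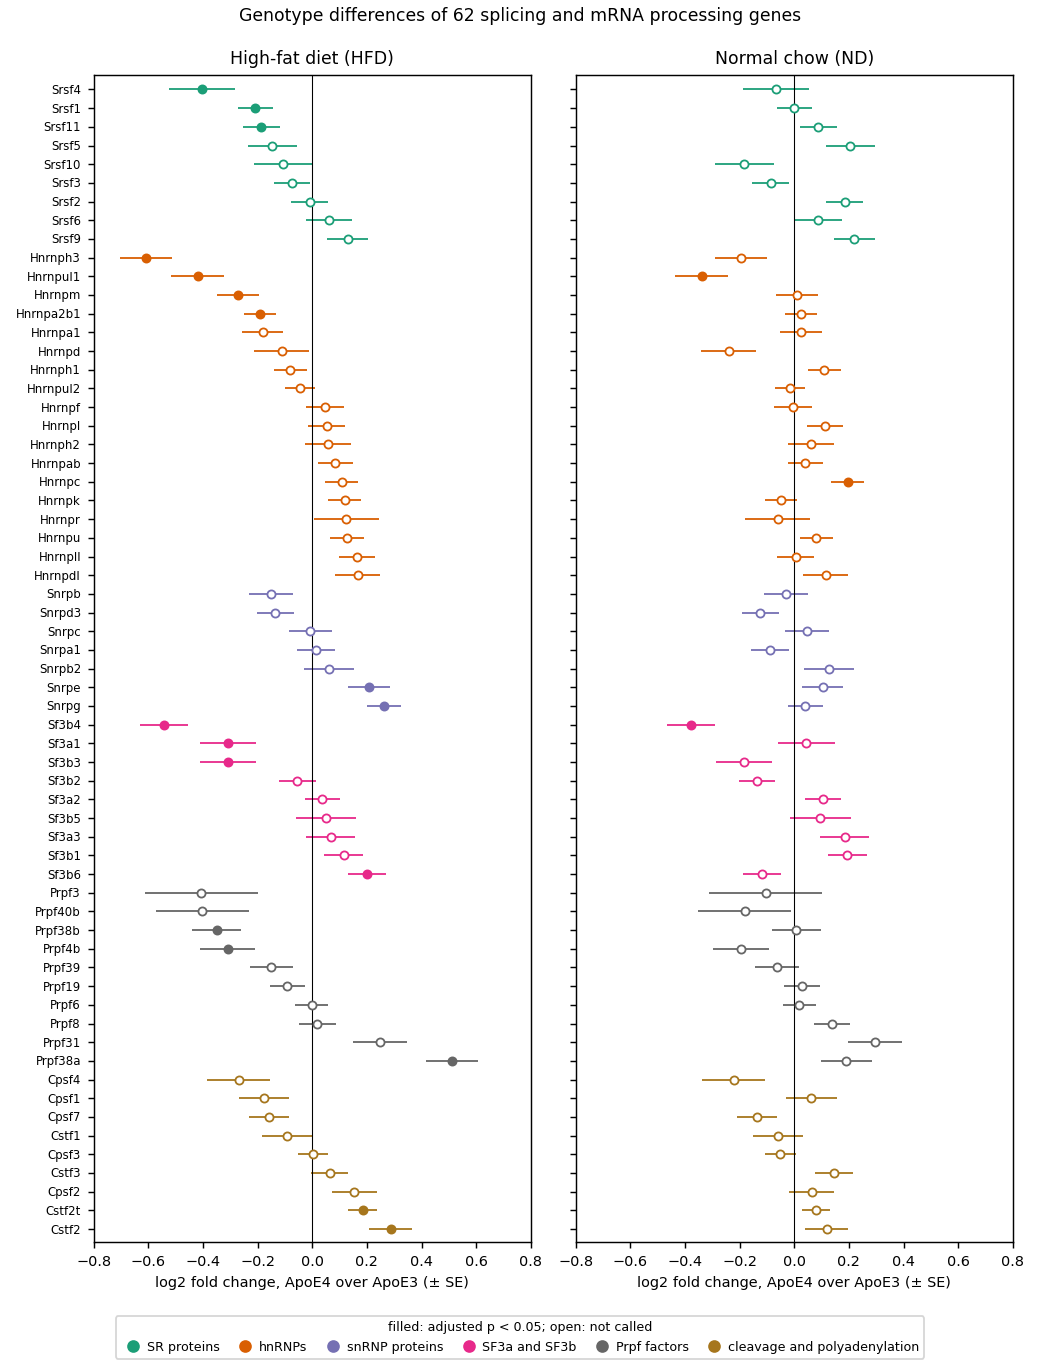
Log2 fold change of ApoE4 over ApoE3 (± SE) for the 62 tested factors on the high-fat diet (left) and on normal chow (right), coloured by role and ordered within a role by the value on HFD. Filled points passed an adjusted p of 0.05, which 18 factors did on HFD and 3 on ND.

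Promoter sequence is shown for 4 of the factors with the clearest genotype difference that have an entry, Hnrnph3 and Hnrnpul1 (lower in ApoE4) and Prpf38a and Snrpg (higher in ApoE4 on HFD), and for Pabpn1 and Pan2. Each is the 250 bases before 1 annotated transcription start, from RefSeq on build GRCm38.p6, written 5' to 3' on the strand of the gene. That start need not be the outermost one. The Hnrnpul1 window lies wholly inside the annotated gene, whose 5' end is at 25756268. Part of the Hnrnph3 window (gene 5' end 63023980) and the last bases of the Pan2 window (gene start 128303333) also lie inside. Capitals mark the CCAAT box (letters CCAAT, or ATTGG on the other strand) and the core bound by ETS factors (CCGGAAG, or CTTCCGG on the other strand).
Hnrnph3, chr10:63023850-63024099, - strand: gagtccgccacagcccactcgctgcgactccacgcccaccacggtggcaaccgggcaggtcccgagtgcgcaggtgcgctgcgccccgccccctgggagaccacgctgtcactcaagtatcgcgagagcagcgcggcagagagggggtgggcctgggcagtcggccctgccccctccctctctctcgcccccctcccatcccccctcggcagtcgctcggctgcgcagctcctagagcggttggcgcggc
Hnrnpul1, chr7:25754760-25755009, - strand: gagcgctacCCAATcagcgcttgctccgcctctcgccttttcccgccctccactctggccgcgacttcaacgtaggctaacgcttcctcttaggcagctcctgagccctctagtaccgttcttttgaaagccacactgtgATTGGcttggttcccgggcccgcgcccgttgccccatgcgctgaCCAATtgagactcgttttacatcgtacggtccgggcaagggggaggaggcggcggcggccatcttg
Prpf38a, chr4:108579337-108579586, - strand: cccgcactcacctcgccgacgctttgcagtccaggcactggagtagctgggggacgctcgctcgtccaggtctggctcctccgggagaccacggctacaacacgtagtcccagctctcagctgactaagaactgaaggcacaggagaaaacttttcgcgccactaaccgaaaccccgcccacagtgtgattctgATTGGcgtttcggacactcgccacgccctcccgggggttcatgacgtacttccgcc
Snrpg, chr6:86371290-86371539, + strand: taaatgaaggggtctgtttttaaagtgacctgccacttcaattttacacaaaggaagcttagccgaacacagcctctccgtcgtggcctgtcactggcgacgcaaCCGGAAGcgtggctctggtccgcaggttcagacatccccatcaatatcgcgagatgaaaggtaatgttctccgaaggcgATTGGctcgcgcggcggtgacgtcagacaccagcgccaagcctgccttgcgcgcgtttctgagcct
Pabpn1, chr14:54893893-54894142, + strand: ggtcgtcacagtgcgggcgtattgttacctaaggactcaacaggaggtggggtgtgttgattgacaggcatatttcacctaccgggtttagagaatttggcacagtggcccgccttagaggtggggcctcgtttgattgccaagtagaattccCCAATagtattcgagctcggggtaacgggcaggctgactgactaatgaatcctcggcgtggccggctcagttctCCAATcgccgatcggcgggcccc
Pan2, chr10:128303085-128303334, + strand: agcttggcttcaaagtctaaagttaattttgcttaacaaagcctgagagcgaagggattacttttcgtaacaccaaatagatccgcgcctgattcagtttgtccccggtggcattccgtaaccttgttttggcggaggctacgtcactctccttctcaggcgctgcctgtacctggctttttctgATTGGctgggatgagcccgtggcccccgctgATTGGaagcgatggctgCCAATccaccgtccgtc
In these windows Hnrnpul1 and Pan2 each held 3 CCAAT boxes, Pabpn1 held 2, Prpf38a and Snrpg held 1, and Hnrnph3 held 0. The ETS core was present once in Snrpg and in none of the other windows.

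Of the 66 factors, 60 had an entry, with 81 windows among them. The CCAAT box was in 44.4% of these windows, against 34.8% of the 8764 windows of tested genes and 33.8% of all 32851 windows. The ETS core was in 29.6% of the factors' windows, against 13% of windows of tested genes and 6.91% of all windows. For the GC box (GGGCGG, or CCGCCC) the shares were 56.8%, 56.9% and 32.7%, and for the TATA box (TATAAA, or TTTATA) 6.17%, 6.94% and 12.4%, in the same order. The palindrome TGACGTCA of the cAMP response element was in 1.23% of the factors' windows, 2.37% of windows of tested genes and 1.55% of all. Both strands were searched, and no motif's letters contain another's. The factors' windows held a median of 19 CpG dinucleotides, against 15 for tested genes and 6 over all windows, while the median GC content was 59.6% for both the factors and the tested genes. These shares describe the letters only and were not tested, since the windows of 1 gene overlap.

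Among the 9 SR proteins, 3 fell in ApoE4 on HFD and 0 rose (33.3%, against 27.9% of all genes tested). Srsf1, the founding SR protein, which binds exonic enhancers, read 5070.4 to 6611.1 (median 5666) in ApoE4 HFD and 6378.8 to 7177.3 (median 6560) in ApoE3 HFD. Thus 5 of 6 ApoE4 arrays lay below every ApoE3 array. Its fold change was -0.21 ± 0.063 (limma, adjusted p = 0.0165). This probe set is of the kind that can share probes with other transcripts, and of 5 further Srsf1 probe sets 2 had the same sign and 1 of them passed (-0.27 ± 0.059). Srsf4, a longer SR protein, read 473.3 to 688.8 (median 523.4) in ApoE4 HFD and 654.1 to 827.9 (median 714.4) in ApoE3 HFD. Again 5 of 6 ApoE4 arrays were below the whole ApoE3 group, at -0.41 ± 0.12 (limma, adjusted p = 0.0155). Srsf11, an SR-related protein that acts at the 3' splice site, read 1023.3 to 1371.3 (median 1194) in ApoE4 HFD and 1240.7 to 1578.7 (median 1316) in ApoE3 HFD. The groups overlapped, and Srsf11 fell by 0.19 on the log2 scale (SE 0.068, limma, adjusted p = 0.0394), while its other probe set had the opposite sign (0.17 ± 0.077) and did not pass. The 6 other SR proteins had fold changes from -0.15 to 0.13. Srsf5, whose probe set had the highest mean of the role, read 4869.5 to 7303.5 (median 6606) in ApoE4 HFD and 5957.0 to 8475.3 (median 6863) in ApoE3 HFD, and the groups overlapped over most of their range.

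Among the 18 hnRNPs, 4 fell and 0 rose on HFD (22.2%, against 27.9% of all genes tested). Hnrnph3, a member of the hnRNP H and F family that binds G-rich runs, read 231.4 to 323.8 (median 274) in ApoE4 HFD and 381.2 to 494.9 (median 426) in ApoE3 HFD. The groups were fully apart, at -0.61 ± 0.095 (limma, adjusted p = 8.44e-05). Hnrnpul1, an hnRNP U-like protein linked to transcription and the response to DNA damage, read 746.2 to 1105.3 (median 838.8) in ApoE4 HFD and 989.8 to 1301.4 (median 1221) in ApoE3 HFD. Of the ApoE4 arrays, 5 of 6 lay below every ApoE3 array, and the fold change was -0.42 ± 0.097 (limma, adjusted p = 0.00301). The gene lies on chromosome 7, which also carries Apoe, as do Hnrnpl, Prpf31 and Snrpa1, none of which passed on either diet by the probe set that stands for the gene, and the untested Snrpn. Hnrnpm, a splicing regulator of alternative exons, read 814.2 to 1036.1 (median 907.4) in ApoE4 HFD and 988.9 to 1223.5 (median 1125) in ApoE3 HFD. It fell by 0.27 on the log2 scale (SE 0.076, limma, adjusted p = 0.011), with 4 of 6 ApoE4 arrays below the ApoE3 group.

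Hnrnpa2b1, which binds and sorts RNA in nucleus and cytoplasm, read 4215.5 to 5066.7 (median 4710) in ApoE4 HFD and 5031.1 to 5904.4 (median 5341) in ApoE3 HFD. Only 1 ApoE4 array reached into the ApoE3 range, and the fold change was -0.19 ± 0.058 (limma, adjusted p = 0.0156). Its 3 other probe sets also fell, by 0.41, 0.60 and 0.86 on the log2 scale, and all 3 passed, so the sizes differed between probe sets of the gene. The 14 other hnRNPs had fold changes from -0.18 (Hnrnpa1, adjusted p = 0.0744) to 0.17 (Hnrnpdl, adjusted p = 0.133), both from limma. Hnrnpk, which binds C-rich RNA and had the highest mean of the hnRNP probe sets, read 7746.1 to 9728.6 (median 9374) in ApoE4 HFD and 7205.5 to 8718.0 (median 8670) in ApoE3 HFD. Its fold change of 0.12 ± 0.059 did not pass (limma, adjusted p = 0.135).

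Of the 7 tested snRNP proteins, 2 rose and 0 fell on HFD (28.6%, against 27.9% of all genes tested). Both that rose belong to the Sm ring, and the probe set of each is of a kind that can match other transcripts. Snrpg read 2178.4 to 2357.3 (median 2254) in ApoE4 HFD and 1766.5 to 2031.3 (median 1856) in ApoE3 HFD. The groups did not overlap, and the fold change was 0.26 ± 0.063 (limma, adjusted p = 0.00401). A second Snrpg probe set had the same sign (0.06 ± 0.089) and did not pass. Snrpe read 4487.4 to 6074.8 (median 4956) in ApoE4 HFD and 4096.2 to 4723.9 (median 4294) in ApoE3 HFD. Here 4 of 6 ApoE4 arrays were above the ApoE3 group, at 0.21 ± 0.076 (limma, adjusted p = 0.0429). The other 5, among them the Sm proteins Snrpb and Snrpd3, the U1 protein Snrpc and the U2 proteins Snrpa1 and Snrpb2, had fold changes from -0.15 to 0.06. Snrpn, the Sm protein of neurons in most descriptions, read 12.7 to 101.8 (median 53.0) in ApoE4 HFD and 42.0 to 153.1 (median 88.4) in ApoE3 HFD, and 23 of its 24 readings were called Absent.

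The SF3a and SF3b subunits, 9 in number, held 3 that fell and 1 that rose on HFD (44.4%, against 27.9% of all genes tested). Sf3b4, which contacts the transcript upstream of the branch site, read 770.1 to 984.8 (median 842.7) in ApoE4 HFD and 1056.0 to 1524.4 (median 1247) in ApoE3 HFD. No ApoE4 array reached the ApoE3 range, and the fold change was -0.54 ± 0.088 (limma, adjusted p = 0.00013). Its other probe set also fell (-0.37 ± 0.11, adjusted p = 0.0165 in a limma fit of every probe set). Sf3a1, a subunit of SF3a, read 326.9 to 434.7 (median 389.6) in ApoE4 HFD and 440.7 to 541.5 (median 470.5) in ApoE3 HFD. These groups also lay apart, at -0.31 ± 0.10 (limma, adjusted p = 0.0288). The other Sf3a1 probe set had the same sign and did not pass. Sf3b3, named here after its values were seen, fell by 0.31 on the log2 scale (SE 0.10, limma, adjusted p = 0.0258). Sf3b6, the small subunit that contacts the branch site adenosine, read 2253.1 to 2655.7 (median 2411) in ApoE4 HFD and 1943.1 to 2440.6 (median 2039) in ApoE3 HFD. With 3 of 6 ApoE4 arrays above the ApoE3 group it rose by 0.20 ± 0.071 (limma, adjusted p = 0.0372). The probe sets of Sf3b6 disagreed, since 2 of its 3 others rose and 1, which read only 46.2 on average, fell by 0.78 on the log2 scale. Sf3b1, the large scaffold subunit that is mutated in human myelodysplasia, had a fold change of 0.11 ± 0.070 (limma, adjusted p = 0.227), and the 5 subunits that did not pass ranged from -0.06 to 0.11.

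Of the 10 Prpf factors, 1 rose and 2 fell on HFD (30%, against 27.9% of all genes tested). Prpf38a, which joins the spliceosome shortly before its activation, read 391.9 to 508.8 (median 490.8) in ApoE4 HFD and 270.3 to 377.8 (median 325.9) in ApoE3 HFD. All ApoE4 arrays were above all ApoE3 arrays, at 0.51 ± 0.095 (limma, adjusted p = 0.000509). Its relative Prpf38b went the other way, with 714.8 to 962.1 (median 781.9) in ApoE4 HFD and 916.7 to 1198.7 (median 1009) in ApoE3 HFD. Here 5 of 6 ApoE4 arrays lay below the ApoE3 group, at -0.35 ± 0.090 (limma, adjusted p = 0.00635). The other Prpf38b probe set had the same sign and did not pass. Prpf4b, a kinase of the spliceosome that was named after its values were seen, fell by 0.31 on the log2 scale (SE 0.10, limma, adjusted p = 0.0248), and of its 4 other probe sets 2 had the same sign. The 7 others ranged from -0.41 to 0.25. At the low end Prpf3, a protein of the U4/U6 particle, overlapped between groups with 115.1 to 277.5 (median 198.4) in ApoE4 HFD and 179.9 to 321.5 (median 280.1) in ApoE3 HFD, and it had the widest spread of the tested factors (pooled SD 0.385 on the log2 scale). Prpf8, the protein at the heart of the catalytic core, read 1741.7 to 2255.4 (median 1945) in ApoE4 HFD and 1824.0 to 2117.5 (median 1933) in ApoE3 HFD, a fold change of 0.02 ± 0.067. Prpf40b, a U1-associated protein, read 105.3 to 182.8 (median 152.7) in ApoE4 HFD and 113.8 to 296.4 (median 203.7) in ApoE3 HFD and did not pass (limma, adjusted p = 0.0749).

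Among the 9 tested cleavage and polyadenylation factors, 2 rose and 0 fell on HFD (22.2%, against 27.9% of all genes tested). Cstf2, the CstF subunit that binds the GU-rich element downstream of the cleavage site, read 856.8 to 928.3 (median 906.5) in ApoE4 HFD and 619.9 to 799.2 (median 751.1) in ApoE3 HFD. The groups did not overlap, at 0.29 ± 0.079 (limma, adjusted p = 0.00952). A much dimmer second Cstf2 probe set had the opposite sign (-0.08 ± 0.13) and did not pass. Cstf2t, an intronless copy of Cstf2 on another chromosome, read 1958.5 to 2086.9 (median 2012) in ApoE4 HFD and 1621.8 to 1830.1 (median 1784) in ApoE3 HFD. It too was fully apart, at 0.18 ± 0.053 (limma, adjusted p = 0.0124), and whether the probes tell the 2 copies apart was not tested. Of the other 7, Cpsf4, a subunit that binds the poly(A) signal, had the lowest value (-0.27 ± 0.11, limma, adjusted p = 0.0781) and Cpsf2 the highest (0.15 ± 0.083, adjusted p = 0.165). Cpsf4l, the untested relative of Cpsf4, read 68.6 to 135.0 in ApoE4 HFD and 79.9 to 135.3 in ApoE3 HFD, every time called Absent.

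Most factors have several probe sets, and these did not always give the same call. Over the 142 kept probe sets of the 62 factors, 17 rose and 28 fell on HFD in a limma fit of every probe set (adjusted p under the same threshold). So 45 passed, where 26.4% of all 13936 kept probe sets did. For 13 factors another probe set passed while the one that stands for the gene did not. The share of all genes for which this holds is not given here, so the count is no result about the factors. Of 28 probe sets of the SR proteins, 2 rose and 6 fell. Both that rose were of Srsf3 (0.28 ± 0.062 and 0.80 ± 0.19), and single probe sets of Srsf2 (-0.38 ± 0.091) and Srsf10 (-0.25 ± 0.093) fell. Of 49 probe sets of the hnRNPs, 5 rose and 12 fell. Hnrnpu, which binds nuclear RNA and chromatin, had 2 that rose (0.45 ± 0.096 and 0.19 ± 0.054) and 2 that fell (-0.34 ± 0.070 and -0.44 ± 0.13). Further probe sets of Hnrnpf and Hnrnpab rose, and single ones of Hnrnpdl, Hnrnpul2 and Hnrnpa1 fell. The Hnrnpa1 one (-0.73 ± 0.20) read only 32.6 on average. The Hnrnpa1 probe sets that read 1566 and 1310 on average gave -0.18 ± 0.077 and 0.10 ± 0.058 and did not pass. The remaining factors of this kind were Snrpb2 (0.29 ± 0.081) and Cpsf3 (0.24 ± 0.061), which rose, and Prpf19 (-0.22 ± 0.064) and Prpf31, which fell. Hnrnpu and Sf3b6 were the 2 factors with probe sets that passed in both directions. On ND 9 probe sets rose and 5 fell, where 10.2% of all kept probe sets passed. There 7 factors passed by another probe set only, again with no share over all genes beside it.

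In all, 7 factors had HFD groups with no overlap, 4 higher in ApoE4 (Cstf2, Cstf2t, Prpf38a and Snrpg) and 3 lower (Hnrnph3, Sf3a1 and Sf3b4), where 8.74% of all genes tested had such groups. The tested factors varied between arrays with a median pooled SD of 0.135 on the log2 scale, against 0.176 over all genes tested.

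**Figure D3:**
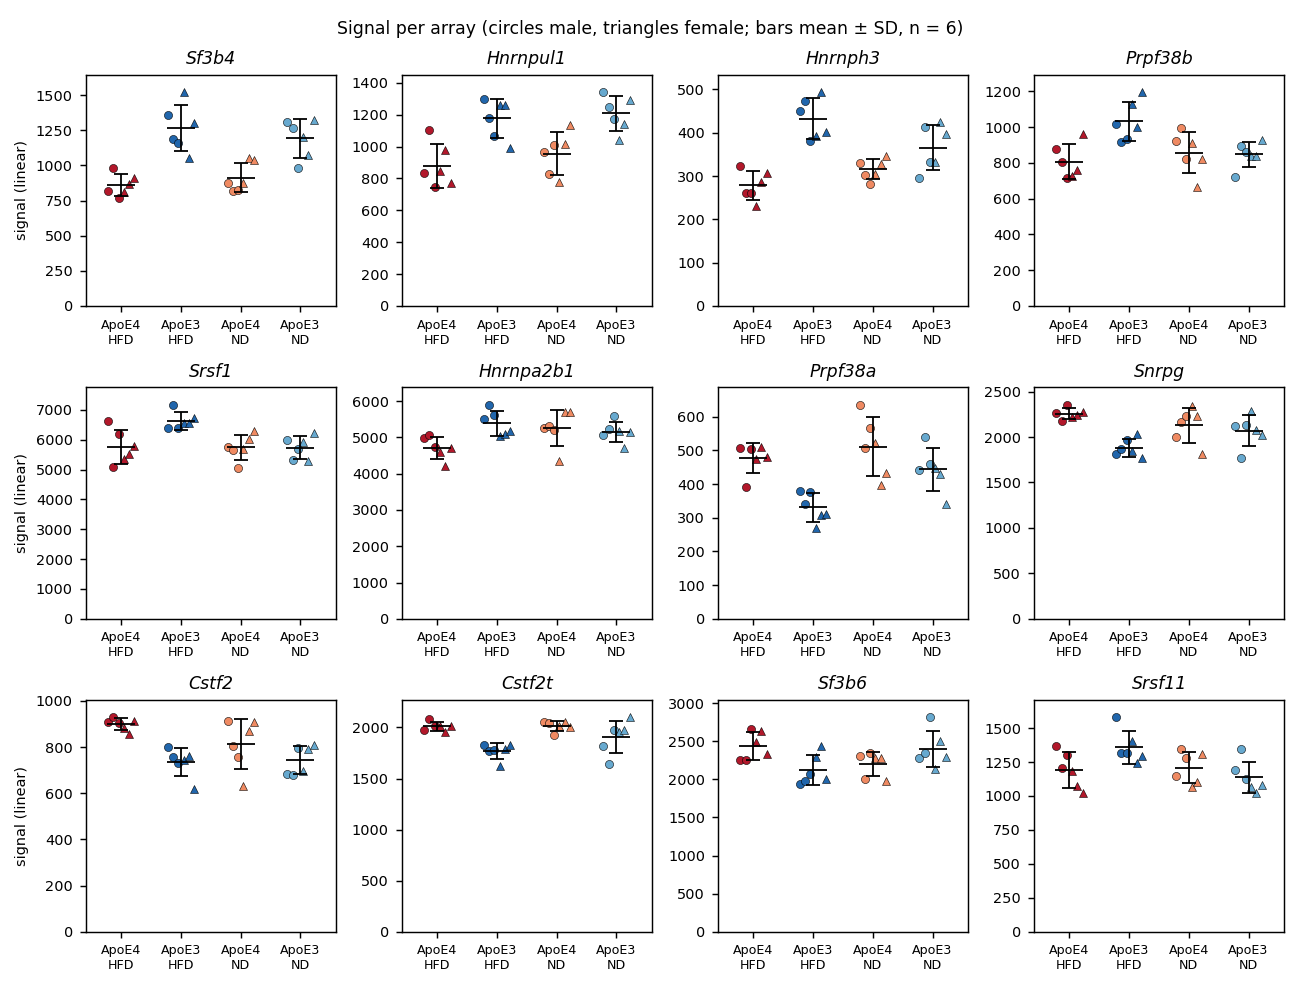
Linear signal of 12 factors, 1 point per array in each of the 4 groups (circles male, triangles female), with bars for the mean ± SD (n = 6) and axes from 0. On HFD the ApoE4 points of Sf3b4 (770.1 to 984.8) and Hnrnph3 (231.4 to 323.8) lie below every ApoE3 point, and those of Prpf38a (391.9 to 508.8), Snrpg, Cstf2 and Cstf2t above.

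On normal chow, 3 of the 62 factors passed between ApoE4 and ApoE3 (4.84%), 1 higher and 2 lower, against 9.74% of all genes tested, 4.14% higher and 5.6% lower. The median fold change was 0.02 over the factors and -0.02 over all genes. Sf3b4 read 816.6 to 1053.6 (median 874.4) in ApoE4 ND and 982.4 to 1325.6 (median 1231) in ApoE3 ND. There were 4 of 6 ApoE4 arrays below the ApoE3 group, and Sf3b4 fell by 0.38 on the log2 scale (SE 0.088, limma, adjusted p = 0.00877). The other Sf3b4 probe set had the same sign on ND and did not pass. Hnrnpul1 read 775.2 to 1135.8 (median 989.8) in ApoE4 ND and 1044.3 to 1344.7 (median 1211) in ApoE3 ND. It was below the ApoE3 group on 5 of 6 ApoE4 arrays, at -0.34 ± 0.097 (limma, adjusted p = 0.027). Hnrnpc, which packs nascent transcripts and binds runs of U, read 3790.1 to 3946.9 (median 3899) in ApoE4 ND and 2844.9 to 3799.9 (median 3486) in ApoE3 ND. The ApoE4 arrays were tightly grouped, 5 of 6 stood above every ApoE3 array, and the fold change was 0.20 ± 0.061 (limma, adjusted p = 0.0379). Its other probe set also rose (0.30 ± 0.093, adjusted p = 0.0402 in a limma fit of every probe set). Without replicate 2 of ApoE4 ND, only 1 of these 3 factors still passed, Sf3b4, and 488 of all genes did, against 805 with every array. With other arrays left out singly the count over all genes reached up to 1076.

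None of the 62 factors had ND groups free of overlap, as 3.1% of all genes tested did. Prpf31, a U4/U6 protein mutated in human retinitis pigmentosa, had the largest positive value, 238.5 to 278.2 (median 272.1) in ApoE4 ND and 192.0 to 285.5 (median 204.1) in ApoE3 ND. It did not pass there (0.30 ± 0.099, limma, adjusted p = 0.0537) or on HFD (0.25 ± 0.099, adjusted p = 0.0624). Its other probe set had the opposite sign, at -0.28 ± 0.098 on ND (adjusted p = 0.069 in a limma fit of every probe set), and fell on HFD (-0.42 ± 0.098, adjusted p = 0.00346). Sf3b1 was close, with 2291.2 to 2964.4 (median 2740) in ApoE4 ND and 2202.3 to 2538.2 (median 2356) in ApoE3 ND (0.19 ± 0.070, limma, adjusted p = 0.0742). Srsf9 read 1017.3 to 1310.3 (median 1301) in ApoE4 ND and 968.3 to 1247.1 (median 1018) in ApoE3 ND and did not pass (limma, adjusted p = 0.0607).

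The genotype comparisons on the 2 diets share no arrays. Sf3b4 and Hnrnpul1 fell on both diets, and 0 factors rose on both, where 3.43% of all genes tested fell on both and 2.47% rose on both. When the brain marker level entered the fit, Hnrnpul1 did not pass on HFD (-0.30 in place of -0.42, limma, adjusted p = 0.19) or on ND (-0.27 in place of -0.34, adjusted p = 0.156). On HFD that level lay apart between the genotypes, so its part cannot be told from that of genotype. Hnrnph3 read 281.5 to 345.4 (median 316.2) in ApoE4 ND and 295.8 to 424.0 (median 364.9) in ApoE3 ND, a fold change of -0.20 ± 0.095 that did not pass (limma, adjusted p = 0.177). Prpf38a read 395.6 to 635.8 (median 514.8) in ApoE4 ND and 340.6 to 540.1 (median 445.4) in ApoE3 ND, at 0.19 ± 0.095 (limma, adjusted p = 0.189). Srsf1 had nearly the same median on ND, 5726 in ApoE4 and 5812 in ApoE3, and a fold change of 0.00 ± 0.063. Of its 5 other probe sets 2 rose on ND (0.19 ± 0.057, adjusted p = 0.0328, and 0.35 ± 0.11, adjusted p = 0.0361, in a limma fit of every probe set). Whether these genotype differences depend on diet is the interaction, which is given below.

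**Figure D4:**
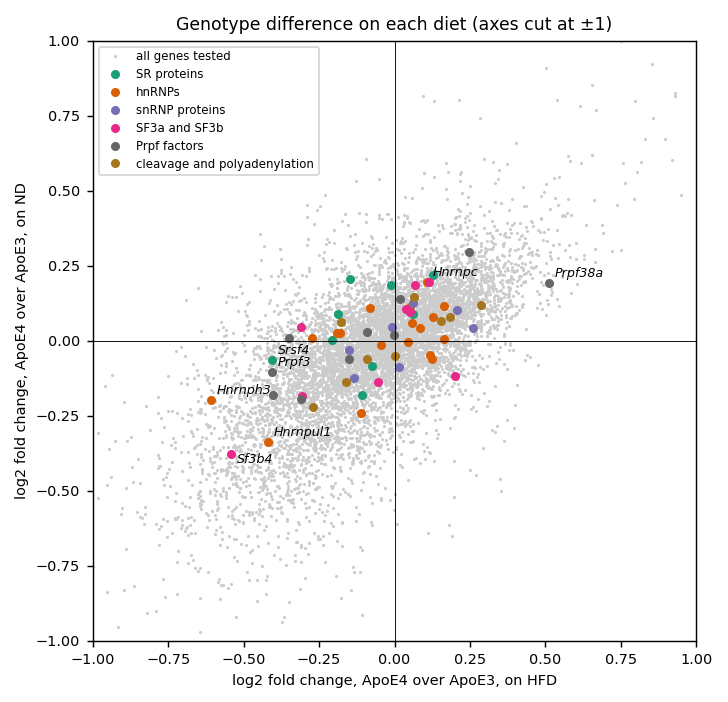
Log2 fold change of ApoE4 over ApoE3 on the high-fat diet (horizontal) and on normal chow (vertical), with all 8261 genes tested in grey and the factors coloured by role. Both axes end at ±1, which leaves some grey points outside, and Sf3b4 (-0.54 on HFD, -0.38 on ND) and Hnrnpul1 (-0.42, -0.34) are the 2 factors that fell on both diets.

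Quantile normalization, which forces all arrays to 1 distribution, changed the split of all genes on HFD to 796 higher and 811 lower (892 and 1410 with the deposited scaling) and on ND to 293 higher and 277 lower (342 and 463). Among the factors it gave 4 higher and 12 lower on HFD, and 1 higher and 2 lower on ND. Hnrnpc was not among these on ND, and it passed under 10 of 13 alternative settings, with limma adjusted p-values of 0.0259 to 0.0797.

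Pabpn1 and Pan2 act on the poly(A) tail. Pabpn1 coats the growing tail in the nucleus and stimulates the poly(A) polymerase, and Pan2 is the catalytic subunit of a deadenylase that trims tails. Their promoter windows are printed above. By the main probe set, Pabpn1 read 3477.1 to 4701.9 (median 3916.2) in ApoE4 HFD and 5116.6 to 6696.3 (median 6063.2) in ApoE3 HFD, with no overlap. On ND it read 3833.5 to 5096.9 (median 4134.6) in ApoE4 and 3627.2 to 5136.5 (median 4498.4) in ApoE3, where the ranges overlapped almost wholly. The ApoE3 HFD group was the one that stood apart, and 5 of its 6 arrays were above every ApoE3 ND array. The difference of means on the log2 scale was -0.56 for ApoE4 minus ApoE3 on HFD, -0.03 for ApoE4 minus ApoE3 on ND, -0.10 for HFD minus ND in ApoE4 and 0.43 for HFD minus ND in ApoE3. The 3 other Pabpn1 probe sets gave -0.32, -0.63 and -0.65 for ApoE4 minus ApoE3 on HFD, and 0.35, 0.59 and 0.51 for HFD minus ND in ApoE3. On all 4 probe sets the highest ApoE4 HFD array was below the lowest ApoE3 HFD array.

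Pan2, with 1 probe set, read 160.4 to 194.7 (median 171.2) in ApoE4 HFD and 211.6 to 281.6 (median 274.4) in ApoE3 HFD. On ND it read 142.2 to 199.5 (median 165.6) in ApoE4 and 153.4 to 198.8 (median 176.3) in ApoE3. As with Pabpn1, the ApoE3 HFD arrays were above all others, here without exception. The difference was -0.54 for ApoE4 minus ApoE3 on HFD, -0.07 for ApoE4 minus ApoE3 on ND, 0.04 for HFD minus ND in ApoE4 and 0.51 for HFD minus ND in ApoE3. These values chose the 2 genes and support nothing further. The summed brain marker signal was also highest in ApoE3 HFD (10601.1 to 12545.4) and above every ApoE3 ND array (8894.5 to 10006.4), and its part in these values was not tested.

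**Figure D5:**
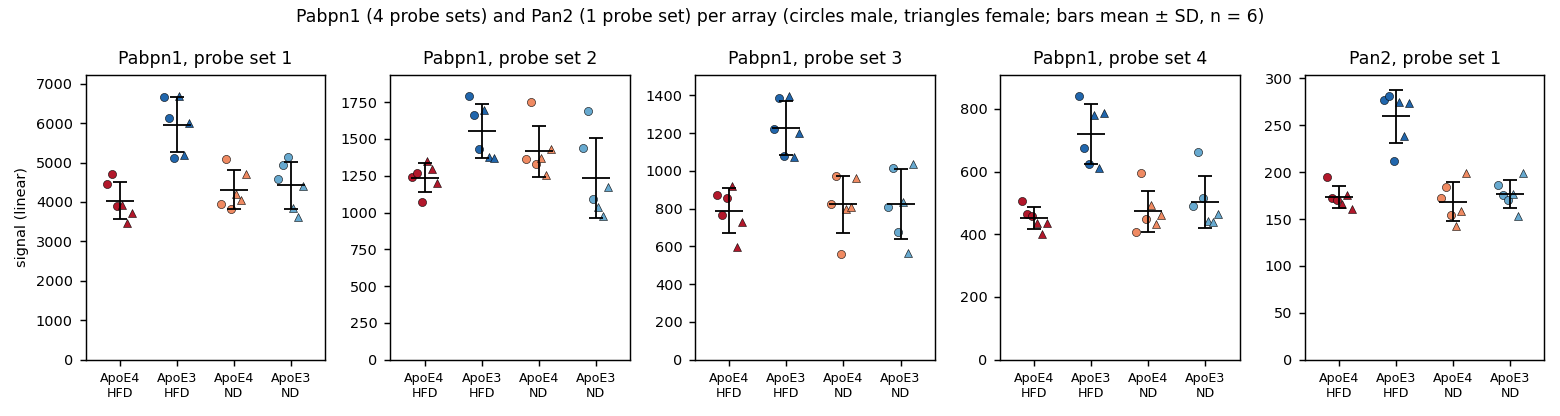
Linear signal of the 4 Pabpn1 probe sets and the 1 Pan2 probe set, 1 point per array in each of the 4 groups (circles male, triangles female), with bars for the mean ± SD (n = 6) and axes from 0. In all 5 panels the ApoE4 HFD points lie below the ApoE3 HFD points, as 3477.1 to 4701.9 against 5116.6 to 6696.3 in the first Pabpn1 panel.

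Few genes passed between the diets in this tissue. In ApoE3, HFD against ND, 0 of the 62 factors passed, and 0.23% of all genes tested did, all of them higher. With 1 array left out at a time the count over all genes, 19 with every array, ran from 0 to 74 and was 74 without replicate 2 of ApoE3 ND. At an unadjusted p under 0.05 the limma fit held 18 of the 62 factors (29%) and 13.4% of all genes. These comparisons share the ApoE3 HFD arrays with the genotype comparison on HFD. Closest to passing was Prpf38a, with 270.3 to 377.8 in ApoE3 HFD and 340.6 to 540.1 in ApoE3 ND, 3 of 6 HFD arrays lying below the ND group (-0.40 ± 0.095, limma, adjusted p = 0.065). Srsf11 read 1240.7 to 1578.7 in ApoE3 HFD and 1024.7 to 1343.5 in ApoE3 ND, with overlap (0.25 ± 0.068, limma, adjusted p = 0.0798). The HFD groups of Srsf1 (6378.8 to 7177.3, against 5273.7 to 6225.9 on ND) and of Hnrnph1 (4232.5 to 4771.5, against 3795.6 to 4048.5 on ND) lay fully above the ND groups in ApoE3. Neither passed (limma, adjusted p = 0.135 for Srsf1 and 0.129 for Hnrnph1), and 0.92% of all genes tested had such groups. Sf3b6 (-0.17 ± 0.071) and Snrpg (-0.13 ± 0.063) were the other factors of smallest p among those lower on HFD.

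In ApoE4, HFD against ND, 0 of the 62 factors and 0% of all genes tested passed. The limma fit held 2 of the factors (3.23%) and 6.97% of all genes at an unadjusted p under 0.05, and the smallest adjusted p of a factor was 0.492. Hnrnpa2b1, the factor of that p, read 4215.5 to 5066.7 (median 4710) in ApoE4 HFD and 4356.3 to 5696.8 (median 5279) in ApoE4 ND, with overlap. Its fold change was -0.15 ± 0.058. The other factors of small p were Hnrnph3 (-0.18 ± 0.095) and Sf3b1 (-0.12 ± 0.070) among the lower, and Sf3b6 (0.15 ± 0.071), Cstf2 (0.15 ± 0.079) and Hnrnpdl (0.15 ± 0.083) among the higher.

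The interaction asks whether the genotype difference on HFD differs from that on ND. It passed for 0 of the 62 factors and 0% of all genes tested, with a smallest adjusted p of 0.275 among the factors. At an unadjusted p under 0.05 the limma fit held 12 factors (19.4%) and 10.1% of all genes. The estimates, as the difference on HFD minus that on ND, were -0.41 ± 0.13 for Hnrnph3, 0.32 ± 0.10 for Sf3b6, 0.32 ± 0.13 for Prpf38a and 0.22 ± 0.089 for Snrpg. The factors that passed on HFD and not on ND are therefore not shown to differ between the diets.

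Females differed from males in 0 of the 62 factors, where 1.28% of all genes tested passed, 0.823% higher in females and 0.46% lower. In limma 9 factors (14.5%) and 14.9% of all genes had an unadjusted p under 0.05. The values of smallest p were -0.16 ± 0.048 for Srsf11 (limma, adjusted p = 0.0966), -0.19 ± 0.058 for Hnrnpdl and -0.19 ± 0.060 for Srsf6 among the lower in females. Among the higher in females were Snrpd3 (0.13 ± 0.047), Sf3a1 (0.18 ± 0.073) and Sf3a2 (0.09 ± 0.046).

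Other genes of mRNA processing were read from 10 lists of 211 genes, of which 161 were tested. On HFD 20 of them rose and 23 fell in ApoE4 (26.7%, against 27.9% of all genes tested), and on ND 6 rose and 3 fell (5.59%, against 9.74%). Splicing regulators with other names held 11 that fell and 2 that rose of 44 on HFD (29.5%, against 27.9% of all genes tested). Among those that fell were Tial1 (-0.78 ± 0.092) and its relative Tia1 (-0.55 ± 0.10), which bind U-rich runs beside 5' splice sites, and Rbfox2 (-0.56 ± 0.093), which binds GCAUG elements. Rbfox2 also fell on ND (-0.45 ± 0.093). Tra2b, an SR-like activator, and Matr3, a nuclear matrix protein, rose on HFD (0.22 ± 0.056 and 0.16 ± 0.059). On ND Elavl1, which stabilizes mRNAs with AU-rich elements, rose (0.23 ± 0.066). Of the 7 SR protein kinases, Clk2 (-0.38 ± 0.083) and Clk3 (-0.23 ± 0.089) fell on HFD and 0 rose (28.6%, against 27.9%).

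Of the 24 tested spliceosome helicases and catalytic complex genes, 6 rose and 1 fell on HFD (29.2%, against 27.9% of all genes tested). Among these were Smu1 at 0.33 ± 0.062, Usp39 at 0.31 ± 0.067 and Sart1 at -0.27 ± 0.074. Rbm22 rose on ND (0.28 ± 0.080). Of 13 Lsm and SMN complex genes, Lsm3 (0.30 ± 0.073), Lsm8 (0.39 ± 0.11) and Lsm1 (0.20 ± 0.075) rose on HFD and 0 fell (23.1%). Branch site recognition, next to SF3, held 1 that fell of 10 on HFD (10%), Sf1 (-0.34 ± 0.078), the protein that first binds the branch site. On ND Sf1 also fell (-0.24 ± 0.078) and Rbm17 rose (0.33 ± 0.078). The exon junction complex held Pnn and Acin1 (-0.53 ± 0.092 and -0.24 ± 0.084) that fell on HFD and Rbm8a (0.21 ± 0.065) that rose, of 5 tested (60%).

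At the 3' end, 3 of 11 further genes rose on HFD and 0 fell (27.3%, against 27.9% of all genes tested). These were Ssu72 (0.50 ± 0.069), a phosphatase of RNA polymerase II, Zc3h14 (0.30 ± 0.072), which binds poly(A), and Nudt21 (0.26 ± 0.082), which binds UGUA elements before the cleavage site. Poly(A) binding and deadenylation genes held 2 that rose and 2 that fell of 16 on HFD (25%). The poly(A)-binding protein Pabpc4 was at -0.43 ± 0.083 on HFD and -0.32 ± 0.083 on ND, and the deadenylase subunit Cnot2 at 0.19 ± 0.053 on HFD. Paip2 (0.17 ± 0.061) and Cnot6l (-0.47 ± 0.16) were the others on HFD. Of 15 mRNA decay genes, 1 rose and 2 fell on HFD (20%). The exosome subunit Exosc9 rose on both diets (0.36 ± 0.070 on HFD and 0.25 ± 0.070 on ND). Ddx6, a helicase of decay and storage, fell on HFD (-0.43 ± 0.081), as did the exosome subunit Exosc8 (-0.48 ± 0.14). Edc4, an activator of decapping, rose on ND (0.39 ± 0.11). Cap binding and nuclear export held 2 that rose and 2 that fell of 16 on HFD (25%), with the export receptor Nxf1 at -0.32 ± 0.083 and the cap methyltransferase Rnmt at 0.34 ± 0.11. The others were Thoc7 (0.18 ± 0.055) and Ddx39b (-0.19 ± 0.064), both of the export complex. Nxt1, the partner of Nxf1, rose on ND (0.36 ± 0.097).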

How the data were processed

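RNA of laser-captured choroid plexus was labelled by in vitro transcription and read on 24 Affymetrix mouse arrays, per the labels' protocols. The deposited intensity values are the signals the authors made with GCOS 1.4, per the submitters' processing notes, on a linear scale, scaled array by array. Each came with a detection call by the authors. The array annotation named 1 gene for 20380 of 22690 probe sets.

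Signals were taken to log2 after adding 16, and 13936 probe sets Present on at least 6 arrays were kept. The brightest probe set stood for each of 8261 genes. A linear model with a mean per group and sex was fitted to all 24 arrays (limma 3.58.1, R 4.3.3, empirical Bayes with trend and robust estimation), after a test on simulated data. Adjusted p-values are Benjamini-Hochberg over all genes, two-sided. Precision is limited by how many arrays there are. The genes, lists and alternatives were chosen with earlier results of these data known. The named factors were the 10 of smallest p per direction that passed by genotype, the 3 per direction for other comparisons, and each role's probe sets of highest and lowest mean. From each list of other mRNA processing genes, up to 2 per direction of smallest p that passed were named. Factors and genes outside this rule (Prpf4b, Sf3b3, Tia1, Lsm1, Nudt21 and those given as the ends of a range) were named after their values were seen. Alternatives were the added constant (1 or 64), quantile normalization, 2 other filters, no sex term, a replicate block, only the arrays compared, array weights, the mean of probe sets, covariates for brain markers or hybridization controls, and arrays left out. Fitting every probe set was added after seeing the data.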

Additional observations from a re-analysis of the deposited data

Results flagged for a closer look

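Of 132 groups of 6 arrays examined, 33 factors in the 4 groups, 7 held an array whose gap to the nearest other array was, as a share of the group's range, over Dixon's critical value. Chance gives about 1 in 20 such groups. Each was the lowest array of its group. On the high-fat diet, Prpf38a read 391.9 on ApoE4 replicate 2, with the other 5 arrays at 473.8 to 508.8. Cpsf4l, never called Present, read 68.6 on ApoE4 replicate 6, with the others at 108.6 to 135.0. Cstf2 read 619.9 on ApoE3 replicate 6, with the others at 732.0 to 799.2. Cstf2t read 1621.8 on ApoE3 replicate 4, with the others at 1767.0 to 1830.1. On normal chow, Cstf2t read 1929.4 on ApoE4 replicate 3 (others 2004.5 to 2050.1), Hnrnpa2b1 read 4356.3 on ApoE4 replicate 4 (others 5211.7 to 5696.8) and Srsf6 read 1721.1 on ApoE4 replicate 5 (others 2250.8 to 2503.3). Without each array in turn, the calls of Prpf38a, Cstf2, Cstf2t and Hnrnpa2b1 on the high-fat diet held.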

How the results depend on the processing

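Over 13 alternative settings and 24 fits without 1 array each, no factor that passed by genotype changed direction. Sf3b4 passed on both diets and Hnrnph3 on HFD under every setting and without each array. On HFD, 12 of the 18 calls held without each array in turn and 2 held in every setting. The brain marker covariate left 3 calls (Hnrnph3, Sf3b4 and Cstf2) and 388 genes in all. The brain marker means lay apart between the genotypes on HFD, so that fit cannot tell their part from that of genotype. Without the 4 arrays of lowest hybridization signal, Cstf2, Cstf2t, Srsf1, Prpf4b, Sf3b3, Sf3a1, Sf3b6 and Srsf11 did not pass on HFD. With the hybridization control covariate, Cstf2, Srsf1, Sf3b3, Sf3a1 and Srsf11 did not. Cstf2 was also lost with the mean of probe sets. Over all genes on ND, the brain marker covariate gave 356 calls and the hybridization control covariate 1405, against 805 in the main setting. For ND (3 factors in the main setting), array weights gave 5, the hybridization control covariate 10, and leaving out the 4 arrays of lowest hybridization signal, all ApoE4, gave 5. For diet in ApoE3 (0), quantile normalization gave 1, array weights 2, the mean of probe sets 1, and the fit without those 4 arrays 1. Without 1 array at a time, the factors that passed numbered 1 to 4 on ND, 13 to 19 on HFD, 0 to 1 for diet in ApoE3, 0 to 1 for sex, and 0 for diet in ApoE4 and the interaction. The count of 1 for diet in ApoE3 came without replicate 2 or 6 of ApoE3 ND or replicate 2 of ApoE4 HFD, and for sex without replicate 6 of ApoE4 ND or replicate 4 of ApoE4 HFD. Among the values recomputed for named factors, the mean of a gene's probe sets turned 3 that had not passed, Hnrnpa2b1 (0.072) and Sf3b6 (-0.048) for diet in ApoE4, and Snrpd3 between the sexes (-0.007). With the replicate number as a replicate block, 4 factors passed on ND, 18 on HFD and 0 in the other comparisons. The numbers were not taken to pair the arrays, since not every pair of same-numbered arrays was over 0.1, which is no test of pairing. Deviations of same-numbered arrays correlated at -0.19 to 0.17 (median 0.02), with 7 of 36 over 0.1, against 6 of 72 pairs of other numbers. As a hint from the data and not the design, 13 of 24 arrays correlated best with their own number. Of the pairs compared for this, 36 shared a number and 72 did not. Whether the numbers pair the arrays was not tested. The causes of these changes were not tested. Signal over background limits Cpsf4l and Snrpn, which were not tested.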
